A study of Homo sapiens with 6 samples.

Results

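The 9 genes described here encode client enzymes of the co-chaperone DNAJC12 and the enzymes that make and recycle the cofactor of those clients. They were taken by symbol from the gene count table, which held all 9 among 58735 genes. The tyrosine hydroxylase gene TH and the tryptophan hydroxylase genes TPH1 and TPH2 encode clients. GCH1, PTS and SPR encode the enzymes that build tetrahydrobiopterin from GTP, and PCBD1, PCBD2 and QDPR encode the enzymes that restore it after use. RNA was sequenced from MDA-MB-231 cells, a human breast cancer line of the triple-negative class. The overexpression group (3 libraries, genotype given as DNAJC12 overexpression) had been transfected with DNAJC12v, and the empty vector group (3 libraries, genotype given as control) with the vector alone, so that both groups had gone through transfection. No promoter of the vector, time after transfection or selection of clones is stated in the labels, nor whether each library had its own culture. The p-values here therefore reflect the spread between these libraries, which may be technical.

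As background, the aromatic amino acid hydroxylases share a catalytic fold that binds iron, and each needs tetrahydrobiopterin and oxygen to add a hydroxyl group to its amino acid. TH makes the catecholamine precursor L-DOPA in neurons and adrenal medulla. TPH1 starts serotonin synthesis in gut and pineal cells, and TPH2 does so in neurons of the brain stem. DNAJC12 is a J-domain protein that keeps these enzymes folded together with the heat shock chaperone HSP70. The cofactor pathway is wider than its hydroxylases, because nitric oxide synthases and the glyceryl ether monooxygenase AGMO use tetrahydrobiopterin as well.

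Libraries held 17967283 to 18887497 counts, with 20310 to 21971 genes read in each. DNAJC12 was read 522, 523 and 492 times in overexpression replicates 1 to 3, and 1, 0 and 0 times in empty vector replicates 1 to 3, which matches the labels. The line markers VIM, CD44, AXL and KRT18 lay between 56.0 and 461 FPKM (fragments per kilobase of gene length, scaled to depth by the authors) in all 6 libraries, and the hormone receptor genes ESR1 and PGR at or below 0.0103 FPKM. Of 9 markers of catecholamine and serotonin cells, the cell types that normally hold the hydroxylases, 8 had a mean under 0.2 FPKM. The transcription factor gene FEV, a marker of the serotonin cells, had 0 counts in all 6 libraries. The summed level of the 9 markers was 1.05 to 1.79 FPKM with DNAJC12 and 1.11 to 1.20 FPKM with the empty vector, most of it from DBH. Among 6 markers of leukocytes, endothelium and hepatocytes, 5 had a mean under 0.2 FPKM. The other was the adhesion gene PECAM1, at 0.584 ± 0.109 FPKM with DNAJC12 and 2.34 ± 0.491 FPKM without (SD, n = 3, adjusted p = 0.0125, edgeR), and its part in the results below was not tested.

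Upstream sequences were available for 7 of the 9 genes in RefSeq (GRCh38.p14), among them a gene with no reads, TPH2, and SPR, one of the cofactor genes with the most reads per length. Both are shown with each CpG dinucleotide in capitals, because the pair differs in base composition as well as in level. Each window is the 250 bases before the RefSeq start, which is not always the start in GENCODE 29, the annotation behind the gene positions given here. The last 48 bases of the SPR window lie inside the GENCODE gene and are left out. TPH2 is chr12:71938595-71938844 on the plus strand and the part of SPR shown is chr2:72887158-72887359 on the plus strand.
TPH2: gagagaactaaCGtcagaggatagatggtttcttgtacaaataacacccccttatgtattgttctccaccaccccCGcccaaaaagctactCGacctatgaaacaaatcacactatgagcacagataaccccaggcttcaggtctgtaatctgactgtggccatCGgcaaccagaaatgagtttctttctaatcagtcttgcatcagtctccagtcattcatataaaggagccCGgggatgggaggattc
SPR: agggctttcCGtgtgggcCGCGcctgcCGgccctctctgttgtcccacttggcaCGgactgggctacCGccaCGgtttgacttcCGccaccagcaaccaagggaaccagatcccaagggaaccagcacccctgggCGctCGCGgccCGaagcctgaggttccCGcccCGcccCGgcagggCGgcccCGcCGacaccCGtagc
The TPH2 window held 5 CpG and 46.0% GC, and the 202 bases of SPR 19 CpG and 71.3% GC. The median over 35116 RefSeq windows of 250 bases was 11 CpG and 58.0% GC. The TPH2 window also held the letters TATAAA at -29 to -24 from the RefSeq start. Of the 35116 windows, 10.7% held these letters at any position and on either strand. The share with them at this position was not determined. Of the 7 windows, that of TPH2 alone held TATAAA. The letters CCAAT were also searched for on either strand. They were found in the full windows of TPH1 and PTS, and in 32.0% of the 35116 windows. The full windows of the other genes that were read, PTS, PCBD1, PCBD2 and QDPR, held 21 to 36 CpG, with 63 to 225 of their bases inside the GENCODE gene. That of TPH1, a gene with few reads, held 17, and its RefSeq start lies 3843 bases upstream of the GENCODE start. These are descriptions of the windows, and base composition was not tested against expression.

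The client hydroxylases had few or no reads in both groups, at most 13 counts in a library. TH (ENSG00000180176, chr11:2163929-2171877, minus strand) was counted 4, 5 and 3 times in replicates 1 to 3 of the overexpression group, against 2, 1 and 3 times in those of the empty vector group. All 6 libraries therefore held some TH reads, but only overexpression replicates 1 and 2 exceeded the floor of 3 counts, which is 0.0457 to 0.0583 FPKM for this gene. Summed over a group, TH had 12 counts with DNAJC12 and 6 without, a ratio of CPM (counts scaled to the size of the library) of 2.02 with a 95% counting interval of 0.701 to 6.55 (exact binomial). A difference in TH was not detected, and the interval covers both directions. Intervals and floors cover counting error only.

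TPH1 (ENSG00000129167, chr11:18017564-18042426, minus strand) was counted 13, 0 and 6 times in replicates 1 to 3 of the overexpression group, against 2, 0 and 1 times in those of the empty vector group. The groups overlapped, since both replicates numbered 2 held no TPH1 read. Summed, the gene had 19 counts with DNAJC12 and 3 without, a ratio of CPM of 6.39 with a 95% counting interval of 1.88 to 33.7. This interval leaves out the spread between libraries, and 13 of the 19 counts came from 1 library. TPH1 did not pass the filter on low counts (at least 10 counts in enough libraries). With no filter, the edgeR quasi-likelihood test gave TPH1 a log2 fold change of 2.46 ± 1.12 SE (95% interval 0.25 to 4.66, unadjusted p = 0.029). It was not called after Benjamini-Hochberg adjustment over all genes (adjusted p = 0.337, edgeR). The DESeq2 Wald test gave an unadjusted p of 0.101 and no adjusted p. The highest TPH1 level, 0.114 FPKM, was below the lowest level of PCBD2, 0.542 FPKM, the least abundant of the 6 cofactor genes. TPH2 (ENSG00000139287, chr12:71938846-72186618, plus strand) had 0 counts in all 6 libraries. The 95% counting interval of a count of 0 reaches 3.69 counts. The floor of 3 counts is 0.0214 to 0.0273 FPKM for this gene. No fold is given for TPH2. In bulk RNA, few cells with a transcript and little of it per cell cannot be told apart.

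**Figure D1:**
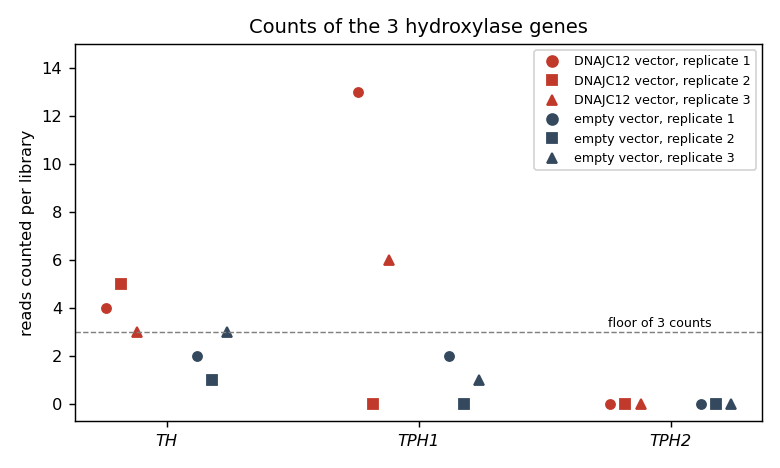
Reads counted for TH, TPH1 and TPH2 (vertical axis, reads per library) in each of the 6 libraries, with the floor of 3 counts as a dashed line. TPH1 reached 13 and 6 counts in overexpression replicates 1 and 3 and lay at 0 in replicate 2, and TPH2 lay at 0 throughout.

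All 6 cofactor genes were expressed in every library, over a wide range of levels. On the FPKM scale, which is per length, the order by mean over the 6 libraries was SPR (40.4 ± 10.7, SD, n = 6), PCBD1 (35.1 ± 4.77), QDPR (12.1 ± 1.97), PTS (6.95 ± 1.26), GCH1 (2.35 ± 0.460) and PCBD2 (0.656 ± 0.10). SPR and PCBD1 overlapped in range, with SPR above PCBD1 in 4 of 6 libraries. QDPR and PTS touched, with QDPR above PTS in 5 of 6 libraries. PCBD1 and QDPR, PTS and GCH1, and GCH1 and PCBD2 were in the same order in all 6 libraries, with no overlap of their ranges. GCH1 encodes the first and usually rate-limiting enzyme of the route, and its RNA was thus lower than that of PTS and SPR in each library. These levels use the deposited gene lengths, which join the exons of all transcripts. With the length of the APPRIS principal transcript instead, an alternative added after the data were seen, PCBD1 (56.3 FPKM) stood above SPR (40.4) and PTS (23.3) beside QDPR (22.4), while GCH1 (2.36) and PCBD2 (0.837) stayed lowest of the 6.

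**Figure D2:**
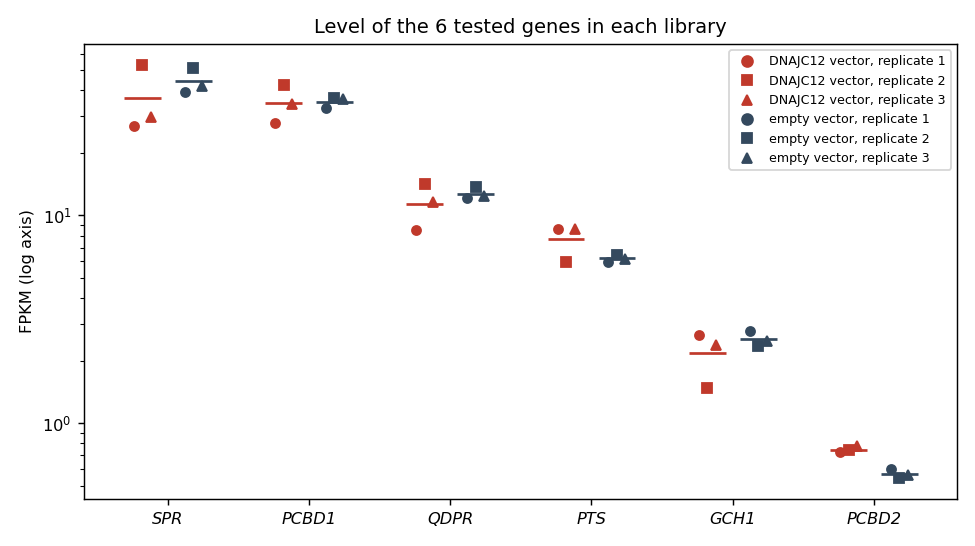
FPKM (vertical log axis) of the 6 cofactor genes in each library, with a bar at the mean of each group. SPR and PCBD1 were highest and PCBD2 lowest, and the 3 overexpression libraries lay above the 3 empty vector libraries for PCBD2 alone.

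No cofactor gene passed the test between groups. Of the 9 genes, 6 passed the filter on low counts and were tested. By the edgeR quasi-likelihood test, adjusted over 14520 genes by the Benjamini-Hochberg method at a threshold of 0.05, 0 of them were called, and 0 had an unadjusted p below that value. Over all tested genes 1.25% were called and 14.1% had an unadjusted p below 0.05. The 6 genes with neither therefore do not stand apart from the rest. The DESeq2 Wald test (3.22% of all genes called) and limma on log2 FPKM (1.41%) gave no call among them either. Their median log2 fold change was -0.083, beside 0.049 over all genes. In simulated data at the fitted spread, the share of changed genes recovered was 29% at 2-fold and 94% at 4-fold. The simulation took genes of all levels and no deviation shared between the genes of a library. In it most changes of 2-fold were missed, and smaller changes were not simulated.

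Synthesis begins with GCH1 (ENSG00000131979, chr14:54842008-54902852, minus strand), GTP cyclohydrolase. It was at 2.64, 1.47 and 2.39 FPKM in overexpression replicates 1 to 3 and 2.78, 2.35 and 2.48 FPKM in empty vector replicates 1 to 3. Replicate 2 of the overexpression group was the low library, and the other 5 lay close together. The log2 fold change was -0.22 ± 0.30 SE (95% interval -0.88 to 0.45, adjusted p = 0.801, edgeR), which in linear terms spans 0.543 to 1.36 times the empty vector level. Without overexpression replicate 2 the value was -0.0016. PTS (ENSG00000150787, chr11:112226365-112269955, plus strand) carries out the second step as pyruvoyltetrahydropterin synthase. It was at 8.56, 5.96 and 8.57 FPKM with DNAJC12 and 6.0, 6.46 and 6.15 FPKM without. Overexpression replicates 1 and 3 lay above every empty vector library and replicate 2 below them. Its log2 fold change was 0.32 ± 0.24 SE (-0.21 to 0.86, adjusted p = 0.599, edgeR), and 0.48 without overexpression replicate 2, where PTS did not pass either (adjusted p = 0.0687, edgeR).

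SPR (ENSG00000116096, chr2:72887360-72892158, plus strand), the sepiapterin reductase of the last step, was the most variable of the 6. It was at 27, 53.2 and 29.9 FPKM in overexpression replicates 1 to 3 and 39.3, 51.3 and 42.0 FPKM in empty vector replicates 1 to 3. Overexpression replicates 1 and 3 lay below every empty vector library, and replicate 2 above them. With all 6 libraries the log2 fold change was -0.26 ± 0.28 SE (-0.89 to 0.36, adjusted p = 0.726, edgeR). Without overexpression replicate 2 it was -0.62 ± 0.17 SE (-0.98 to -0.26), and SPR passed at an adjusted p of 0.0192. That fit called 22.5% of all tested genes, so a call among 6 genes is near the background. Without overexpression replicate 1 the log2 fold change was -0.097, and without replicate 3 it was -0.14, with no call in either (adjusted p = 0.914 and 0.958, edgeR). Without both libraries numbered 2 the value was -0.52 and SPR did not pass (adjusted p = 0.0551, edgeR, with 18.7% of genes called). Over all 17 alternatives its adjusted p ran from 0.0192 to 0.958.

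The dehydratases that act after each hydroxylation, PCBD1 and PCBD2, differed in level and in spread. PCBD1 (ENSG00000166228, chr10:70882280-70888784, minus strand) was at 27.9, 42.3 and 34.3 FPKM with DNAJC12 and 32.9, 36.6 and 36.4 FPKM without. The overexpression libraries lay on both sides of the empty vector libraries, and the log2 fold change was -0.01 ± 0.21 SE (-0.49 to 0.47, adjusted p = 0.988, edgeR). The sign changed without overexpression replicate 1 (0.11), without empty vector replicate 3 (0.0077) and after a correction for GC content (0.068). Its paralog PCBD2 (ENSG00000132570, chr5:134904906-135007959, plus strand) was at 0.723, 0.739 and 0.774 FPKM with DNAJC12 and 0.599, 0.542 and 0.562 FPKM without. Every overexpression library was above every empty vector library. PCBD2 was the only one of the 6 whose groups did not overlap, a pattern that 20.1% of all tested genes showed. Its log2 fold change was 0.40 ± 0.25 SE (-0.17 to 0.96) and did not pass (adjusted p = 0.529, edgeR). It was above 0 in all 17 alternatives, at 0.15 to 0.44, with no call in any. PCBD2 rested on 70 to 108 counts a library, and 581 of its exon bases (8.10%) are shared with CATSPER3, which had 1 to 8 counts, on the same strand.

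QDPR (ENSG00000151552, chr4:17460261-17512234, minus strand), dihydropteridine reductase, returns the spent cofactor to its active form. It was at 8.55, 14.1 and 11.6 FPKM with DNAJC12 and 12.2, 13.7 and 12.3 FPKM without. Overexpression replicate 1 was the lowest library and replicate 2 the highest, with the empty vector libraries between them. The log2 fold change was -0.15 ± 0.23 SE (-0.68 to 0.37, adjusted p = 0.825, edgeR), and 0.0079 without overexpression replicate 1. The intervals of the 6 genes reached from 0.541 to 1.95 times the empty vector level, so changes of that size are not shown to be absent.

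**Figure D3:**
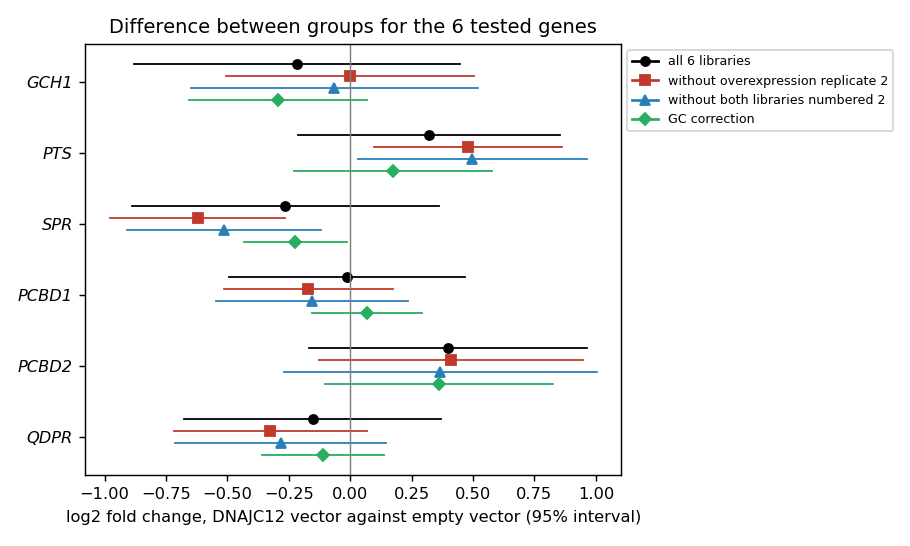
Log2 fold change of DNAJC12 vector against empty vector with its 95% interval (horizontal axis) for the 6 tested genes, from the edgeR fit of all 6 libraries and from 3 alternatives. With all 6 libraries and no correction every interval includes 0. Those of SPR and PTS exclude 0 without overexpression replicate 2 and without both libraries numbered 2, as does that of SPR after GC correction, and among these SPR without overexpression replicate 2 alone passed after adjustment.

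Replicate 2 of the overexpression group stood apart in most of these genes, below the others in genes of low GC content and above them in genes of high GC content. In the overexpression group, log2 CPM in replicate 2 minus the mean of replicates 1 and 3 was -0.77 for GCH1 (44.6% GC), -0.54 for PTS (40.8%) and -0.036 for PCBD2 (44.7%). It was 0.48 for QDPR (52.7%), 0.43 for PCBD1 (56.7%) and 0.89 for SPR (61.2%). Among all tested genes the median gap was -1.09 in the lowest of 5 equal bins of GC content and 0.73 in the highest. In the empty vector group the gaps of the 6 genes were smaller, from -0.17 for GCH1 to 0.32 for SPR, with PTS at 0.079, and those bins had medians of -0.41 and 0.27. PCBD2 departed least in the overexpression group, although the median gap of its bin was -0.65. TPH1, with 0 counts in both libraries numbered 2, had the lowest transcript GC content of the 9 genes, at 38.3%. Its counts were too few for such a gap, and a link between its counts and GC content was not tested. After removal of the GC trend, SPR had a log2 fold change of -0.22 (-0.43 to -0.015, adjusted p = 0.122) and PTS of 0.17 (adjusted p = 0.536, both edgeR), and none of the 6 was called, while 19.8% of all genes were.

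**Figure D4:**
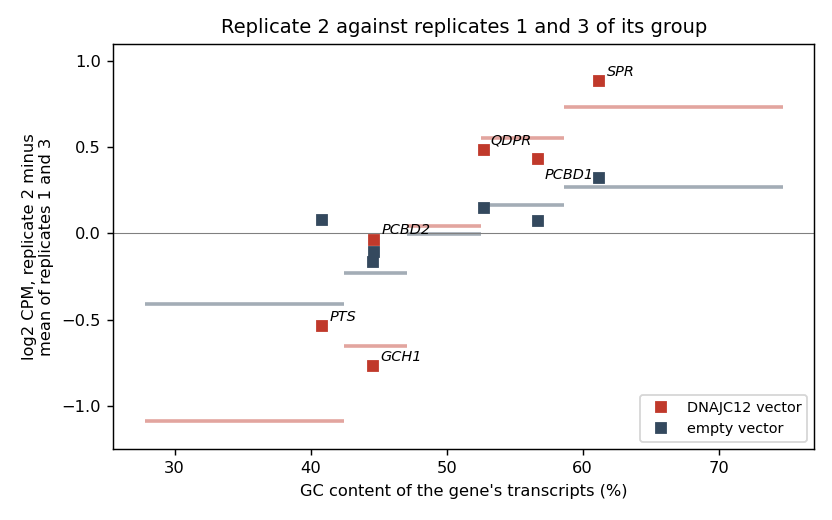
Log2 CPM of replicate 2 minus the mean of replicates 1 and 3 of the same group (vertical axis) against transcript GC content in percent (horizontal axis) for the 6 tested genes as squares, red for the DNAJC12 vector and dark for the empty vector. Lines give the median gap of all tested genes in each of 5 bins of GC content, from -1.09 to 0.73 with DNAJC12 and from -0.41 to 0.27 without.

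Ratios between genes of the same library compare RNA levels along the route, not amounts of enzyme. PTS to GCH1, the second against the first step, had FPKM ratios of 3.24, 4.04 and 3.59 with DNAJC12 (replicates 1 to 3) and 2.15, 2.75 and 2.48 without. Every overexpression library was above every empty vector library, with a difference of 0.56 on the log2 scale. The exact two-sided permutation test gave p = 0.1, the smallest that 3 against 3 libraries allow, and 0.2 after Benjamini-Hochberg adjustment over 2 ratios. Over its 8 alternatives the difference ran from 0.47 to 0.64, and GC correction was not among them. The share of all gene pairs whose ratios do not overlap between groups was not determined. PCBD1 to PCBD2 was 38.6, 57.3 and 44.3 with DNAJC12 and 54.9, 67.5 and 64.8 without. The groups overlapped through overexpression replicate 2, and the log2 difference was -0.43 (exact permutation p = 0.2, adjusted 0.2). GCH1 to GCHFR, the gene of its feedback regulatory protein, is not given because GCHFR had as few as 6 counts in a library.

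**Figure D5:**
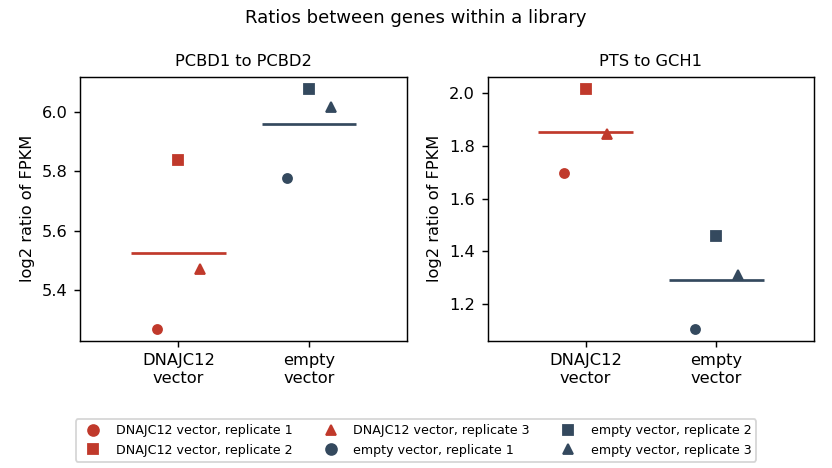
Log2 ratio of FPKM (vertical axes) of PCBD1 to PCBD2 and PTS to GCH1 in each library, with a bar at the mean of each group. Only for PTS to GCH1 do the groups not overlap, at 1.70 to 2.02 with DNAJC12 and 1.11 to 1.46 with the empty vector.

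Around these genes, 21 others of cofactor supply, cofactor use and monoamine handling gave no call in the same test either. Of them 10 were tested and none passed. At an unadjusted p under 0.05 there were 2 (14.1% of all tested genes), and 3 had groups that did not overlap, 1 higher and 2 lower, against 20.1% of all tested genes. DESeq2 and limma on log2 FPKM called none of them. In cofactor supply, 5 of 5 genes were tested, with a median log2 fold change of -0.18. The carbonyl reductase gene CBR3 had all overexpression libraries below all empty vector libraries, but its log2 fold change of -0.59 did not pass (adjusted p = 0.344, edgeR). The aldose reductase gene AKR1B1 was the most abundant of the list, at 147 ± 37.3 FPKM with DNAJC12 and 141 ± 11.0 FPKM without (SD, n = 3). CBR1 (19.1 ± 5.12 and 22.4 ± 0.395 FPKM) and AKR1C3 (10.3 ± 0.843 and 11.7 ± 1.49 FPKM), which can also reduce pterin intermediates, overlapped between groups. GCHFR lay at 0.193 to 0.554 FPKM.

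Other users of the cofactor were scarce. NOS1 had 0 counts in all 6 libraries, AGMO had 1 count in all, NOS2 had 3 to 8 counts a library and NOS3, the only one tested, 4 to 28. Among 12 genes of monoamine handling, 4 were tested, and none was called by that test. MAOA, monoamine oxidase A, was at 1.99, 1.51 and 1.37 FPKM with DNAJC12 and 3.18, 2.63 and 2.53 FPKM without (log2 fold change -0.77 ± 0.26 SE, adjusted p = 0.219, edgeR). The groups did not overlap, and MAOA passed in 4 of 17 alternatives. Among them were the fits without overexpression replicate 2 (adjusted p = 0.0497, edgeR), without both libraries numbered 2 (0.0328) and after GC correction (0.00943), which called 22.5%, 18.7% and 19.8% of all genes. CBR3 passed without overexpression replicate 2 (0.0285, edgeR) and after GC correction (0.0365). DBH, which turns dopamine into noradrenaline, was read in every library, at 1.19 ± 0.243 FPKM with DNAJC12 and 0.845 ± 0.0379 FPKM without (0.50, adjusted p = 0.467, edgeR). The decarboxylase DDC, which acts between TH and DBH, had 2 counts in all.

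For each tested gene, the most similar others were sought among 8252 protein-coding genes averaging 10 CPM or more, by the root mean square difference of centred log2 CPM over the 6 libraries. They were GRSF1 and TTL for GCH1, ITPRIPL2 and THSD4 for PTS, FLNC and TRMT2A for SPR, MGLL and PCGF1 for PCBD1, CHKA and RTN3 for PCBD2, and BST2 and C11orf49 for QDPR. Their differences were 0.0252 to 0.046 on the log2 scale, against medians of 0.282 to 0.46 over the candidates. With 6 libraries and a shared GC trend, such likeness is a description of these libraries.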

How the data were processed

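RNA sequencing of 6 MDA-MB-231 libraries, 3 per group, was analysed from 2 deposited tables of 58735 genes. They hold the raw count of reads per gene and the FPKM of each gene, both made by the authors, and the deposited gene lengths. The submitters' processing notes name HISAT2 2.0.5 and hg19. The gene identifiers and positions in the tables are, for all 58735, those of GENCODE 29 on GRCh38, the build used for coordinates here. The counter is not given in the sources used here, nor is strandedness, so overlapping genes are uncertain.

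Counts were tested with the edgeR 4.0.16 quasi-likelihood test (R 4.3.3, TMM, filterByExpr with a minimum count of 10 and total of 15, robust dispersions, Benjamini-Hochberg over 14520 genes, threshold 0.05). Genes not tested held 0.129% of counts. The step was tested on simulated data with 200 changed genes (6.82% false calls). CPM use TMM-scaled totals. Intervals are 95%. Log2 CPM used a prior count of 2. Ratios of FPKM were compared by exact permutation where both genes had at least 10 counts in every library.

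Alternatives were DESeq2 1.42.0 (size factors and Wald test), a replicate block, no filter or one of 1 CPM in 3 libraries, each library left out, both libraries numbered 2 left out, library sizes without DNAJC12, limma 3.58.1 on log2 FPKM (pseudocounts 1 and 0.1, which understate changes of low genes; filter 0.5 FPKM in 3 libraries, or none with pseudocount 1), and a loess correction (span 0.3) for transcript GC content, known for 58676 genes.

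Some list genes, and a ratio with one of them, are not reported here, and counts and adjustments leave them out. The members, lists and alternatives were chosen with earlier results of these data known. Named were all 9 members, DNAJC12, GCHFR, list genes that were called or had a mean of at least 1 FPKM, and the 2 most similar genes of each tested member. Other list genes with few or 0 counts, PECAM1 and other markers, CATSPER3 and the promoter motifs were named after their values were seen. Figures used matplotlib 3.10.9, with pandas 2.3.3, scipy 1.17.1 and Python 3.11.15.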

Additional observations from a re-analysis of the deposited data

How the results depend on the processing

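Over 17 alternatives, the 6 tested cofactor genes gave 102 values. Of these, 97 kept the direction and the lack of a call, 1 gained a call (SPR without overexpression replicate 2) and 4 changed sign. The sign changes were PCBD1 without overexpression replicate 1 (0.11), without empty vector replicate 3 (0.0077) and after GC correction (0.068), and QDPR without overexpression replicate 1 (0.0079). Members called numbered 0 to 1 over the fits without 1 library and 0 in the rest. Of the related lists, 2 genes were called after GC correction (CBR3 and MAOA), 1 without both libraries numbered 2 (MAOA), and 0 to 2 without 1 library. Signs changed for GCHFR without overexpression replicate 1 (0.24) and empty vector replicate 3 (0.33), for AKR1B1 without overexpression replicate 2 (-0.15), empty vector replicate 1 (-0.0020) and both libraries numbered 2 (-0.14), and for NOS3 without empty vector replicate 2 (0.76). Over the fits without 1 library, values ran from -0.17 to 0.11 for PCBD1, -0.33 to 0.0079 for QDPR, -0.30 to 0.33 for GCHFR, -0.15 to 0.19 for AKR1B1 and -0.68 to 0.76 for NOS3. Over all genes, calls numbered 527 by the DESeq2 Wald test, 688 with no filter, 39 by limma with no filter, 2869 after GC correction, 2754 without both libraries numbered 2, and 25 to 3365 without 1 library. The cause was not tested.

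With the replicate number as a block, 1937 of 14520 genes were called. Among them were 0 of 6 tested members and 1 of 10 tested related genes (MAOA, lower, adjusted p = 0.0165, edgeR). Such counts do not stand apart from the share over all genes. Deviations of same-numbered libraries correlated at 0.45, 0.58 and 0.034 across genes for numbers 1 to 3. Those of differently numbered libraries correlated at -0.58 to 0.22, below the values of numbers 1 and 2. Whether the numbers mark pairs was not tested, and the main test does not take them as pairs. Low counts limit what can be said of TH and TPH1, each above the floor of 3 in 2 of 6 libraries. TPH2 had 0 counts in all 6 libraries, and whether more depth would show reads was not tested.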
